A study of Mus musculus with 16 samples.

Results

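YAP and TEAD pathway genes were examined in primary mammary tumors of mice that carry the polyoma middle T antigen (PyMT), with and without a gene trap in *Resf1*. The 10 genes were taken by name from the table of 23609 genes, and all 10 were found. They are the coactivators *Yap1* and *Wwtr1*, the DNA-binding partners *Tead1*, *Tead2*, *Tead3* and *Tead4*, and the target genes *Ccn1*, *Ccn2*, *Ankrd1* and *Amotl2*. All 10 passed the filter on low values and were among the 21034 genes tested.

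Both groups carried PyMT, which the MMTV promoter expresses in the mammary epithelium and which induces tumors there. The gene trap tumors came from compound MMTV-PyMT/Resf1 +/- animals, and the wildtype tumors from wildtype MMTV-PyMT littermates. The trap line has a C57BL/6 background and was crossed to FVB mice with PyMT. Its lentiviral insert interrupts *Resf1* in the first exon, so transcripts of that allele end early, and the insert also makes cre fused to EGFP. Ages were not given in the labels, and the labels do not say that each tumor came from a separate animal, so p-values measure only the spread between these tumors. Total RNA from 5 wildtype and 5 gene trap tumors was compared, out of 8 labelled for each group. The authors' values are estimated counts per gene that were already normalized between tumors, and the depth of each tumor is therefore unknown.

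YAP (*Yap1*) and TAZ (*Wwtr1*) are transcriptional coactivators at the end of the Hippo pathway. When the Hippo kinases are active, YAP and TAZ are phosphorylated, held in the cytoplasm and degraded. When the kinases are inactive, YAP and TAZ enter the nucleus and bind TEAD factors, which bring them to DNA and to genes of growth, adhesion and matrix signaling. Because this control acts mainly on the proteins, mRNA levels of *Yap1* and *Wwtr1* do not measure YAP or TAZ activity, and the target genes are the usual transcript readout.

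None of the 10 genes had an adjusted p under 0.05 (limma, Benjamini-Hochberg adjustment over all tested genes, 0.9997 for each of the 10), and none had an unadjusted p under 0.05. Over the whole table of tested genes, 0.0% passed this adjusted threshold, while 479 genes or 2.28% had an unadjusted p under 0.05, of which 1.32% of tested genes were higher and 0.956% lower in gene trap tumors. The groups overlapped for each of the 10 genes, against 0.528% of tested genes whose groups did not overlap. The fold changes were 5 toward higher and 5 toward lower levels in gene trap tumors. Their median was -0.0011 on the log2 scale (0.0047 over all tested genes). Without regard to sign, the median was 0.088 over the 10 genes and 0.098 over all tested genes. Fold changes are on the scale of log2 of the value plus 1, which understates changes of genes with low values.

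**Figure D1:**
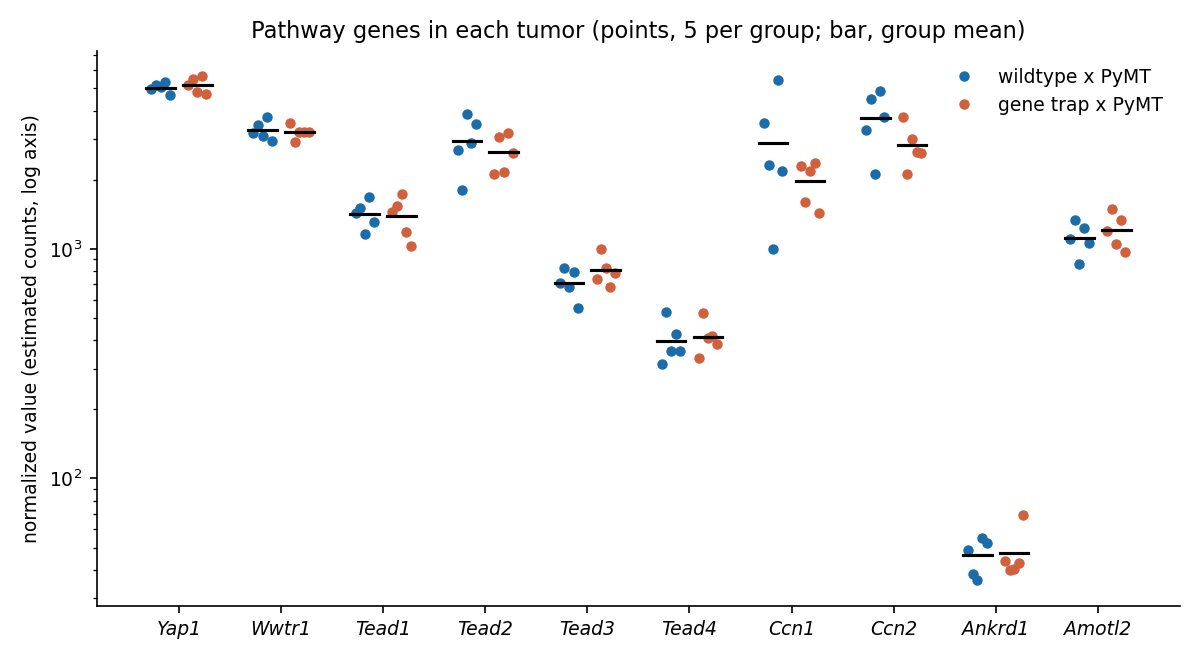
Normalized value of each of the 10 genes in each tumor (points, 5 wildtype and 5 gene trap tumors) on a log axis, with the mean of each group as a bar. *Yap1* and *Wwtr1* are tightly grouped, *Ccn1* ranges from 994 to 5458, and the groups overlap for every gene.

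*Resf1* itself (ENSMUSG00000032712) fell between 3517 and 4487 in wildtype and between 3066 and 4029 in gene trap tumors. Its log2 fold change was -0.22 (95% interval -0.42 to -0.023), a change of -14.2%, with an unadjusted p of 0.0313 and an adjusted p of 0.9997 in limma, and the exact two-sided permutation test gave p = 0.0635. With any single tumor removed, the unadjusted limma p lay between 0.0100 and 0.0781, and 6 of these 10 fits had a p above 0.05. Of the gene trap tumors 3 were below the lowest wildtype tumor. The second gene trap tumor (replicate 2) was distant from the rest on the first principal component, at 91.8 against -18.6 to -4.78. Without this tumor the log2 fold change was -0.30 for *Ccn1*, -0.26 for *Ccn2*, -0.20 for *Tead2* and between -0.09 and 0.10 for the remaining genes of the pathway, and none had an unadjusted p under 0.05. Luminal epithelial markers were high in every tumor, with *Epcam* between 19190 and 25278 and *Krt8* between 16809 and 24801.

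The coactivators varied least of the 10 genes between tumors. *Yap1* (ENSMUSG00000053110), on chromosome 9, was at 4959, 5164, 5061, 5335 and 4701 in wildtype replicates 1 to 5 and at 5176, 5483, 4813, 5662 and 4730 in gene trap replicates 1 to 5. Gene trap replicates 2 and 4 lay above the highest wildtype tumor, and the other three lay within the wildtype range. Between the groups the log2 fold change was 0.034 (standard error 0.071, 95% interval -0.12 to 0.19), and an exact two-sided permutation test gave p = 0.579. With 5 tumors a group such a test cannot go below 0.00794. On the linear scale this interval runs from a change of -7.95% to one of 13.9% in gene trap tumors.

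*Wwtr1* (ENSMUSG00000027803), on chromosome 3, encodes TAZ, the paralog of YAP. It was at 3184, 3477, 3091, 3743 and 2962 in wildtype tumors and at 3535, 2908, 3244, 3239 and 3243 in gene trap tumors, in order of replicate. Only gene trap replicate 2 lay outside the wildtype range, just below it. On the log2 scale the fold change was -0.023 (standard error 0.080, 95% interval -0.20 to 0.15; exact two-sided permutation test, p = 0.770). Its sign turned when gene trap replicate 2 or wildtype replicate 4 was left out (0.014 and 0.025).

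The spread of both coactivators was small against that of tested genes of all levels. The within-group SD of log2 values was 0.094 for *Yap1*, at percentile 5.81 of all tested genes, and 0.12 for *Wwtr1*, at percentile 13.7. At the other end, *Ccn1* had an SD of 0.69, at percentile 93.3. The ratio of the highest to the lowest tumor was 1.20 for *Yap1*, 1.29 for *Wwtr1* and 5.49 for *Ccn1*. The spread was not compared with that of genes at a like level. Several genes of the pathway lists below had a smaller standard error of the log2 fold change than *Yap1* (0.071), down to 0.058. A small spread is thus not particular to the coactivators.

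*Wwtr1* was below *Yap1* in every tumor per kilobase of longest transcript. The log2 ratio of *Wwtr1* to *Yap1* was -0.45 ± 0.079 (SD, n = 5) in wildtype and -0.51 ± 0.17 (SD, n = 5) in gene trap tumors (exact two-sided permutation test, p = 0.524). Gene trap replicates 2 and 4 had the lowest ratios, -0.75 and -0.64, and the remaining tumors lay between -0.54 and -0.34. Without gene trap replicate 2 the difference between the groups was 0.0023.

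The TEAD genes encode factors that share a DNA-binding domain, the TEA domain, and bind YAP or TAZ through their C-terminal part. *Tead2* (ENSMUSG00000030796), on chromosome 7, was at 2702, 1808, 3871, 2884 and 3494 in wildtype replicates 1 to 5. In gene trap replicates 1 to 5 it was at 2124, 3085, 2155, 3182 and 2614. All gene trap values lay inside the wildtype range, which had both the lowest (replicate 2) and the highest tumor (replicate 3). Its log2 fold change was -0.14 (standard error 0.19, 95% interval -0.56 to 0.28; exact two-sided permutation test, p = 0.563). It was -0.030 without wildtype replicate 3 and -0.30 without wildtype replicate 2 (limma unadjusted p = 0.876 and 0.0686).

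*Tead3* (ENSMUSG00000002249), on chromosome 17, had the largest fold change of the TEAD genes. It was at 709, 824, 679, 790 and 553 in wildtype tumors and at 742, 995, 823, 684 and 781 in gene trap tumors, in order of replicate. Gene trap replicate 2 was the highest and wildtype replicate 5 the lowest, and the other 8 tumors were interleaved between 679 and 824. Gene trap over wildtype, the log2 fold change was 0.18 (standard error 0.13, 95% interval -0.094 to 0.46; exact two-sided permutation test, p = 0.254), and it was 0.10 without gene trap replicate 2.

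*Tead1* (ENSMUSG00000055320), on chromosome 7, ranged from 1155 to 1686 in wildtype and from 1025 to 1740 in gene trap tumors. Its gene trap tumors thus held both the lowest value, in replicate 5, and the highest, in replicate 3. Between the groups the log2 fold change was -0.047 (standard error 0.14, 95% interval -0.36 to 0.27; exact two-sided permutation test, p = 0.786). *Tead4* (ENSMUSG00000030353), on chromosome 6 like *Resf1*, ranged from 316 to 530 in wildtype and from 334 to 525 in gene trap tumors. Here the gene trap range lay inside that of wildtype tumors. On the log2 scale the fold change was 0.066 (standard error 0.15, 95% interval -0.27 to 0.40; exact two-sided permutation test, p = 0.675).

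**Figure D2:**
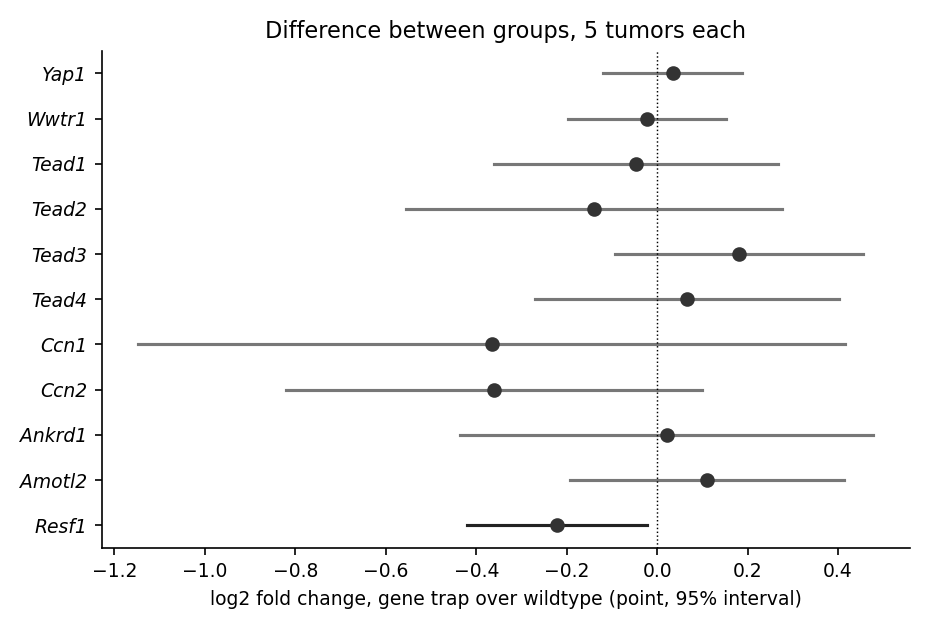
Log2 fold change of gene trap over wildtype tumors for the 10 genes and *Resf1* (point) with its 95% interval from limma (line). The intervals of all 10 genes include 0, from the narrowest for *Yap1* (-0.12 to 0.19) to the widest for *Ccn1* (-1.15 to 0.41).

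*Tead2* was the most abundant TEAD transcript per kilobase in each of the 10 tumors. It made up 63.6% ± 9.68 (SD, n = 5) of the summed TEAD level per kilobase of longest transcript in wildtype tumors. In gene trap tumors the share was 60.2% ± 5.24 (SD, n = 5). *Tead3* followed with 15.7% ± 4.17 (SD, n = 5) and 18.3% ± 2.36 (SD, n = 5), in the same order. *Tead1* held 10.8% and 11.0%, and *Tead4* held 9.90% and 10.5%.

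A difference between the groups was not shown for any of the 4 shares. The exact two-sided permutation tests gave p = 0.508 for *Tead2*, p = 0.246 for *Tead3*, p = 0.897 for *Tead1* and p = 0.817 for *Tead4*, each with an adjusted p of 0.897 over the 4 genes. The tumors themselves differed more than the groups did, since the *Tead2* share ran from 48.6% in wildtype replicate 2 to 72.6% in wildtype replicate 3. The order of the lesser TEAD genes depended on the length used. Per kilobase of coding sequence *Tead1*, which has a long untranslated part, held 26.7% in wildtype and 27.1% in gene trap tumors, above *Tead3* at 12.6% and 14.7%, while *Tead2* still led with 53.0% and 50.02%.

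**Figure D3:**
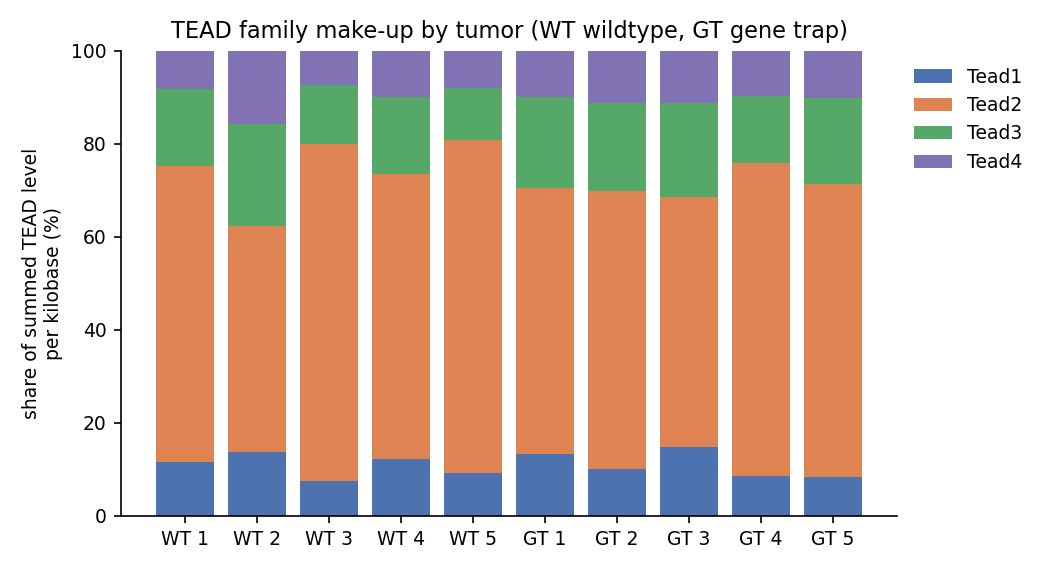
Share of each TEAD gene in the summed TEAD level per kilobase of longest transcript, in percent, for each tumor as a stacked bar. *Tead2* takes between 48.6% and 72.6% of every bar, in wildtype (WT) and gene trap (GT) tumors alike.

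Per kilobase of longest transcript, *Ccn2* (mean over the 10 tumors 1314), *Ccn1* (1206) and *Yap1* (967) led the 10 genes, followed by *Tead2* (822) and *Wwtr1* (695). The ranges over tumors of each of these neighbours overlapped. All 10 tumors had a higher level per kilobase of *Wwtr1* (619 to 797) than of *Amotl2* (195 to 338), with no overlap of the ranges. *Amotl2* (263), *Tead3* (220), *Tead1* (141) and *Tead4* (132) came next, with overlapping ranges between neighbours. *Ankrd1* was the lowest at 23.1, below *Tead4* in every tumor with no overlap. Per kilobase of coding sequence *Yap1* led instead (3489), ahead of *Ccn2* (3133), and *Ankrd1* was again the lowest (48.8). The order between them changed too. *Wwtr1* (2406) then lay above *Ccn1* (2142) and *Tead2* (2091), and *Amotl2* (481) below *Tead1* (1071) and *Tead3* (543).

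The target genes were chosen because YAP, TAZ and TEAD are known to switch them on, and TEAD factors are known to recognize the letters GGAATG or, on the opposite strand, CATTCC. The RefSeq promoter table (build GRCm38.p6, 250 bases before to 50 after the start of each gene) held 7 of the 10 genes, without *Ccn2*, *Tead1* and *Tead4*. These letters occurred in 14.7% of the 32851 promoter windows of the same length. This share is per window, while the matches below are counted per gene, and the 7 genes had 10 windows. *Wwtr1* had the same match in 2 overlapping windows, and 1 window of *Tead3* had no match. They were found in the windows of *Ccn1*, *Ankrd1*, *Amotl2*, *Yap1* and *Wwtr1* and in windows of *Tead3*, and were not found in that of *Tead2*. The matches of the target genes and of the coactivators are shown here because TEAD factors are known to bind such letters. Those of *Tead3*, 1 in its first window and 3 in its second, are not printed. Each run is 30 bases, read 5′ to 3′ along the strand of the gene, with the matching letters in capitals.
*Ccn1*, chr3:145650071-145650100, minus strand: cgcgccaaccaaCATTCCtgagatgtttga
*Ankrd1*, chr19:36120037-36120066, minus strand: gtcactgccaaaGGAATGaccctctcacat
*Ankrd1*, chr19:36119950-36119979, minus strand: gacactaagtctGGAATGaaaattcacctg
*Amotl2*, chr9:102717727-102717756, plus strand: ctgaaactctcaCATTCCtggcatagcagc
*Yap1*, chr9:8004720-8004749, minus strand: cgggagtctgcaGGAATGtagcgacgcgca
*Wwtr1*, chr3:57576029-57576058, minus strand: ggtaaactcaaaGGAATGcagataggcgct

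The match began 103 bases before the RefSeq start of *Ccn1*, 210 and 123 bases before that of *Ankrd1*, 65 before that of *Amotl2*, 141 before that of *Yap1* and 136 before the more upstream of the starts of *Wwtr1*. A match of letters is a description and not a measured site. Of the other motifs searched, the AP-1 letters TGACTCA or TGAGTCA (5.20% of windows) and the CArG box of SRF (1.63% of windows) were not found in the windows of the 7 genes. The fold changes of the targets with matching letters had both signs, and none passed the test. *Ccn1* had a log2 fold change of -0.37, and *Ankrd1* and *Amotl2* of 0.021 and 0.11.

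*Ccn1* (ENSMUSG00000028195), on chromosome 3, formerly *Cyr61*, encodes a secreted matricellular protein that binds integrins. It was at 3535, 2307, 994, 5458 and 2181 in wildtype replicates 1 to 5. In gene trap replicates 1 to 5 it was at 2298, 1599, 2187, 2366 and 1425. Wildtype replicates 4 and 1 were far above every gene trap tumor, and wildtype replicate 3 was below all of them. The wildtype mean was 2895 ± 1692 (SD, n = 5) and the gene trap mean 1975 ± 432 (SD, n = 5).

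The log2 fold change of *Ccn1* was -0.37 (standard error 0.36, 95% interval -1.15 to 0.41; exact two-sided permutation test, p = 0.444). Its size rested on single wildtype tumors. It was -0.084 without wildtype replicate 4 and -0.70 without wildtype replicate 3 (limma unadjusted p = 0.788 and 0.0217). On the linear scale the full interval allows a change from -54.8% to 33.3% in gene trap tumors.

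*Ccn2* (ENSMUSG00000019997), on chromosome 10, formerly *Ctgf*, encodes connective tissue growth factor and is a widely used readout of YAP. It was at 3293, 4492, 2121, 4893 and 3765 in wildtype replicates 1 to 5. In gene trap replicates 1 to 5 it was at 3741, 2114, 3021, 2653 and 2614. The wildtype tumors other than replicate 3 lay above the gene trap tumors other than replicate 1, and those 2 exceptions made the groups overlap.

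The wildtype mean of *Ccn2* was 3713 ± 1086 (SD, n = 5) and the gene trap mean 2829 ± 603 (SD, n = 5). Its log2 fold change was -0.36 (standard error 0.21, 95% interval -0.82 to 0.0998; limma unadjusted p = 0.114; exact two-sided permutation test, p = 0.175). It was -0.55 without wildtype replicate 3, -0.47 without gene trap replicate 1 and -0.25 without wildtype replicate 4 (limma unadjusted p = 0.00622, 0.0498 and 0.267), with no adjusted p under 0.05. Of all tested genes, 10.9% had a larger log2 fold change in size than *Ccn2*.

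*Ankrd1* (ENSMUSG00000024803), on chromosome 19, encodes a cardiac and skeletal muscle ankyrin repeat protein that YAP also induces in epithelial cells. It was at 48.9, 38.4, 35.9, 55.1 and 52.4 in wildtype tumors and at 43.7, 40.01, 40.4, 42.8 and 69.4 in gene trap tumors, in order of replicate. Gene trap replicate 5 was the highest of all tumors, and the other gene trap tumors lay inside the wildtype range. Gene trap over wildtype, the log2 fold change was 0.021 (standard error 0.21, 95% interval -0.44 to 0.48; exact two-sided permutation test, p = 0.937), and -0.12 without gene trap replicate 5. Summed skeletal muscle markers, 6 of 8 in the table, ran from 897 to 12797 in wildtype and from 2084 to 5901 in gene trap tumors. Over the 10 tumors the log2 value of *Ankrd1* and the mean log2 value of those markers had a Pearson r of -0.020 (permutation p = 0.954, adjusted p = 0.993 over 100 relations; Spearman rho -0.055, permutation p = 0.892, adjusted p = 0.996), and r was -0.27 without the 2 tumors farthest from the median of the markers.

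*Amotl2* (ENSMUSG00000032531), on chromosome 9, encodes a motin that binds YAP and TAZ at junctions, so that it is at once a target and an inhibitor. It was at 1099, 1335, 862, 1233 and 1057 in wildtype tumors and at 1197, 1498, 1048, 1329 and 969 in gene trap tumors, in order of replicate. Gene trap replicate 2 lay above the wildtype range and the others within it. Between the groups the log2 fold change was 0.11 (standard error 0.14, 95% interval -0.19 to 0.41; exact two-sided permutation test, p = 0.524), and 0.029 without gene trap replicate 2.

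How the 10 genes varied together was examined over the 10 tumors, by the correlation of log2 values for each of the 45 pairs. No pair had a permutation p under 0.05 after Benjamini-Hochberg adjustment over the 45 pairs. By Pearson r, the 3 pairs with the smallest p joined the targets *Ccn1* and *Ccn2* and tied a coactivator to a target in *Yap1* with *Amotl2* and *Wwtr1* with *Ccn2*. By Spearman rho the 3 were others in part. *Yap1* with *Amotl2* was followed by *Tead3* with *Tead4* (rho 0.70, permutation p = 0.0303) and *Tead1* with *Tead3* (rho 0.68, permutation p = 0.0344). Both of these had an adjusted p of 0.321.

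*Ccn1* and *Ccn2* had a Pearson r of 0.78 (permutation p = 0.00692, adjusted p = 0.294) and a Spearman rho of 0.68 (permutation p = 0.0348, adjusted p = 0.321). Wildtype replicate 4 was the highest and wildtype replicate 3 among the lowest for both genes. Without the 2 tumors farthest from the median of *Ccn1*, r was 0.51.

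*Yap1* and *Amotl2* had a Pearson r of 0.73 (permutation p = 0.0169, adjusted p = 0.294) and a Spearman rho of 0.75 (permutation p = 0.0177, adjusted p = 0.321). This r was 0.74 without the 2 tumors farthest from the median of *Yap1* and 0.67 without gene trap replicate 2.

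*Wwtr1* and *Ccn2* had a Pearson r of 0.72 (permutation p = 0.0196, adjusted p = 0.294) and a Spearman rho of 0.64 (permutation p = 0.0556, adjusted p = 0.377). It was 0.43 without the 2 tumors farthest from the median of *Wwtr1*. When wildtype replicate 5 was left out, r was 0.92 with an adjusted p of 0.0205 over the 45 pairs (exact permutation test), the only pair and the only left-out tumor with an adjusted p under 0.05.

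The 2 coactivators themselves did not vary together in a way that could be shown, with a Pearson r of 0.20 (permutation p = 0.576, adjusted p = 0.798) and a Spearman rho of 0.16 (permutation p = 0.656, adjusted p = 0.823). Without the 2 tumors farthest from the median of *Yap1*, r was 0.070, and without gene trap replicate 2 it was 0.51. *Yap1* and *Ccn2* had a Pearson r of -0.099 (permutation p = 0.780, adjusted p = 0.885) and a Spearman rho of -0.091 (permutation p = 0.812, adjusted p = 0.891), and r was 0.15 without the 2 tumors farthest from the median of *Yap1*.

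For each target gene, the tested genes whose deviations from the group means were most like it over the 10 tumors were found among the 14122 genes whose mean value was 100 or more. For *Ccn1* these were *Zfat* (r = 0.97), the polarity gene *Pard3* (r = 0.95) and *Errfi1*, a feedback inhibitor of EGF receptor signaling (r = 0.94). For *Ccn2* they were *Atp8b2* (r = 0.91), *Loxl3*, a lysyl oxidase that crosslinks matrix (r = 0.88), and *Pdgfc*, a platelet-derived growth factor (r = 0.88). For *Ankrd1* they were the pseudogene *Gm5499* (r = 0.85), the phosphodiesterase *Pde5a* (r = 0.85) and *Stambpl1* (r = 0.84). For *Amotl2* they were the DNA repair gene *Xpc* (r = 0.96), *Kri1* (r = 0.94) and *Atxn7l2* (r = 0.93). These are the highest of 14122 values each, and no gene was shared between the targets.

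Immediate early genes are switched on within minutes by growth factors, stress or tissue handling, and *Ccn1* and *Ccn2* are themselves known to respond in this way. A list of 10 such genes (*Egr1*, *Ier2*, *Atf3* and others, without *Ccn1* and *Ccn2*) had lower mean log2 values in gene trap tumors for 10 of its 10 genes (median log2 fold change -0.46), against 10221 of the 21034 tested genes. Only *Egr2* had an unadjusted p under 0.05 in the limma fit over all genes (unadjusted p = 0.0126), against 0.956% of all tested genes that were lower at this level. The summed value of the list ran from 6808 to 22030 in wildtype and from 7355 to 9282 in gene trap tumors. Wildtype replicates 4 and 1, the highest for *Ccn1*, were also the highest for this sum, at 22030 and 14972. Wildtype replicate 3 was the lowest for both. The mean log2 value of the list was 10.4 and 9.79 in wildtype replicates 4 and 1. It was 9.23, 8.79 and 9.36 in wildtype replicates 2, 3 and 5 and between 8.88 and 9.19 in gene trap tumors. Genes of one response can vary together, so the 10 genes may not be independent. Some marker lists of cell types also leaned to one side, as given below. AP-1 genes were kept in another list. *Fos* and *Fosl2* were at log2 fold changes of -0.77 and -0.32, and *Junb* at -0.15. *Jund*, *Jun* and *Fosb* were at -0.0062, 0.00030 and 0.023.

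Over the 10 tumors, *Ccn1* and the mean log2 value of the immediate early list had a Pearson r of 0.88 (permutation p = 0.00069, adjusted p = 0.069 over 100 relations between the 10 genes and 10 marker lists) and a Spearman rho of 0.72 (permutation p = 0.0232, adjusted p = 0.597). This r was 0.59 without the 2 tumors farthest from the median of the list and 0.76 without wildtype replicate 4. For *Ccn2* and the same list, r was 0.63 (permutation p = 0.0431, adjusted p = 0.763) and rho was 0.72 (permutation p = 0.0239, adjusted p = 0.597), and r was 0.51 without the 2 farthest tumors. Each r with a marker list pools both groups, and r of deviations from the group means was not computed for these lists. The part of the immediate early response in the values of *Ccn1* and *Ccn2* was not tested.

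**Figure D4:**
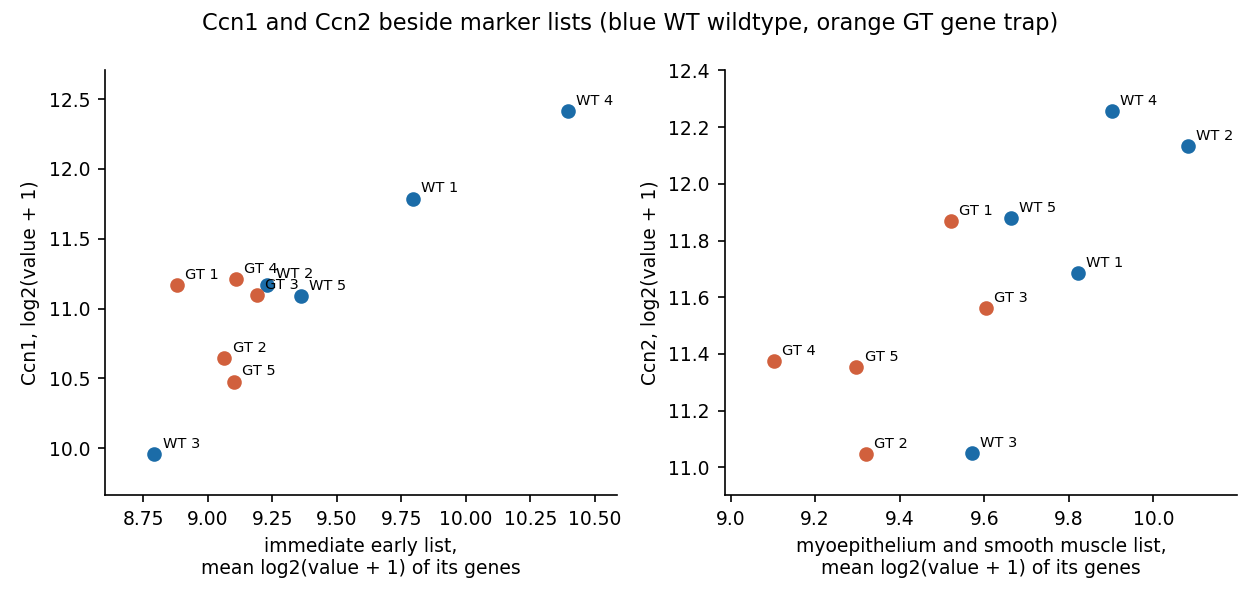
*Ccn1* against the immediate early list (left) and *Ccn2* against the myoepithelium and smooth muscle list (right), each as log2 of the value plus 1 (list: mean over its genes), 1 point per tumor. In the left plot wildtype replicates 4 and 1 sit at the top right and wildtype replicate 3 at the bottom left, and r is 0.88. In the right plot gene trap replicates 2 to 5 lie below and to the left of wildtype replicates 1, 2, 4 and 5, and r is 0.74.

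*Ccn2* was also set beside markers of myoepithelium and smooth muscle, and a relation was not shown after adjustment. Each of the 8 tested markers had a lower mean log2 value in gene trap tumors (median log2 fold change -0.39), against 10221 of the 21034 tested genes. Of them the basal keratin *Krt17* and the smooth muscle myosin *Myh11* had an unadjusted p under 0.05 in the limma fit over all genes (unadjusted p = 0.0174 and 0.0186), against 0.956% of all tested genes that were lower at this level. Their summed value ran from 7452 to 10277 in wildtype and from 5537 to 7455 in gene trap tumors. *Ccn2* and the mean log2 value of the list had a Pearson r of 0.74 (permutation p = 0.0149, adjusted p = 0.497 over 100 relations) and a Spearman rho of 0.76 (permutation p = 0.0145, adjusted p = 0.597), and r was 0.72 without the 2 tumors farthest from the median of the list. The mean log2 value of the list was 9.81 in wildtype and 9.37 in gene trap tumors, and the r of 0.74 pools both groups. The difference between the groups enters this r, and how much of r it makes up was not computed. In whole tumors fewer cells of a type and less RNA per cell cannot be told apart, and the part of these cells in the level of *Ccn2* was not tested. A lean to one side was not particular to this list. All 8 fibroblast markers were higher in gene trap tumors, while all 4 tested adipocyte markers (median log2 fold change -0.48) and 7 of 8 endothelium markers were lower. The luminal epithelium, pericyte and skeletal muscle lists were evenly split. The macrophage and lymphocyte lists had 5 of 8 and 3 of 5 lower.

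A relation of *Tead4* with the luminal epithelial markers, 8 of 8 tested, was likewise not shown after adjustment, at a Pearson r of 0.78 (permutation p = 0.00764, adjusted p = 0.382 over 100 relations) and a Spearman rho of 0.82 (permutation p = 0.00576, adjusted p = 0.576). Here r was 0.84 without the 2 tumors farthest from the median of the list. The summed luminal markers ran from 86500 to 113605 in wildtype and from 90692 to 120089 in gene trap tumors. *Yap1* and the endothelium list had a Pearson r of -0.68 (permutation p = 0.0320, adjusted p = 0.763) and a Spearman rho of -0.66 (permutation p = 0.0432, adjusted p = 0.796), and r was -0.54 without the 2 tumors farthest from the median of the list. None of the 100 relations between the 10 genes and the 10 marker lists had an adjusted p under 0.05, and no marker in the table was listed at 0.

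The rest of the pathway was read from 6 further lists. Of the kinase core, which carries the Hippo signal from the MST kinases (*Stk3*, *Stk4*) to LATS (*Lats1*, *Lats2*), all 16 genes were tested and none had an unadjusted limma p under 0.05, against 2.28% of all tested genes. The median log2 fold change was 0.0039, and single genes lay between -0.19 and 0.091. The smallest p values were those of *Stk38*, a kinase related to LATS, at 0.082 (standard error 0.059; limma unadjusted p = 0.187; exact two-sided permutation test, p = 0.0317), *Map4k4* at -0.095 (standard error 0.070) and *Stk3* at 0.084 (standard error 0.072) on the log2 scale.

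Of 23 junction and polarity regulators, which pass cell contact to the kinases or bind YAP directly, 0 had an unadjusted p under 0.05. With 2.28% of all tested genes under this level, a count of 0 is not unusual in lists this short. The median log2 fold change was -0.0010, with a range from -0.11 to 0.15. *Limd1*, a LIM protein that restrains LATS, had the smallest p, at a log2 fold change of -0.10 (standard error 0.065), followed by *Dlg1* at -0.11 (standard error 0.084) and *Wwc2* at 0.091 (standard error 0.078). The 10 genes of the STRIPAK phosphatase, which removes phosphate from the MST kinases, had a median of 0.00088 and 0 with an unadjusted p under 0.05, with *Ppp2r1a* at 0.15 (standard error 0.091), *Slmap* at -0.10 (standard error 0.074) and *Ppp2cb* at -0.16 (standard error 0.13). The 11 genes of cytoplasmic retention and degradation, among them the 14-3-3 proteins, had a median of -0.0045 and again 0, with *Ywhaz* at 0.10 (standard error 0.10), *Ywhah* at -0.073 (standard error 0.074) and *Ywhae* at 0.092 (standard error 0.098).

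**Figure D5:**
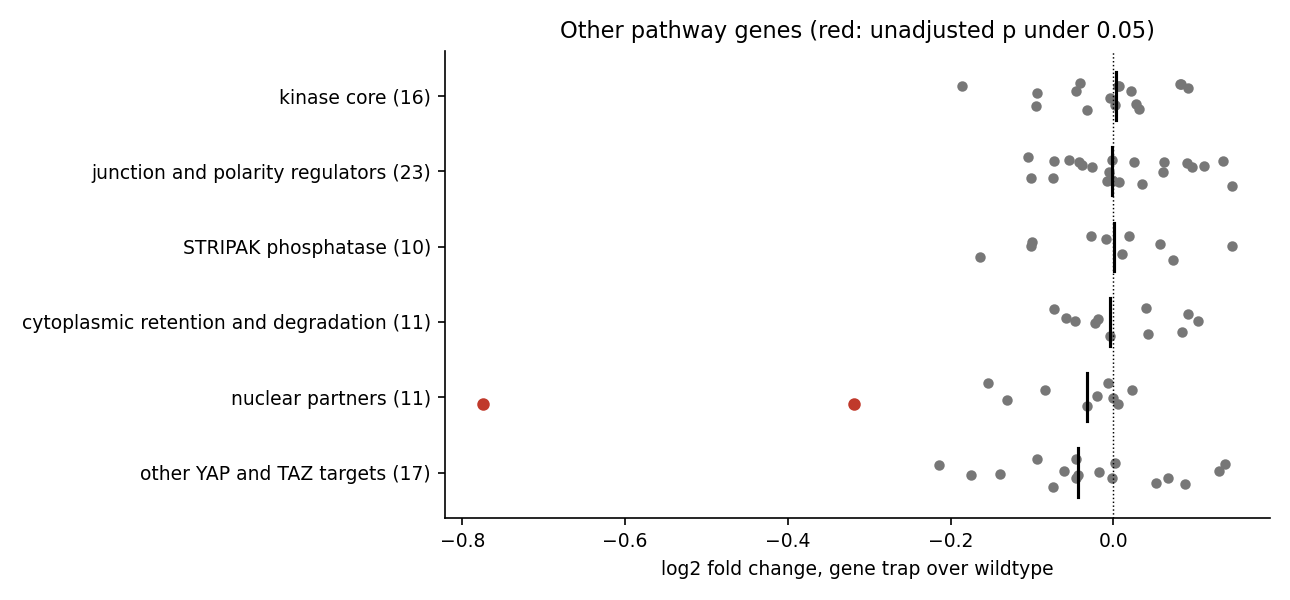
Log2 fold change of gene trap over wildtype tumors for each tested gene of the 6 pathway lists (points, number of tested genes in brackets), with the median of each list as a bar. *Fos* at -0.77 and *Fosl2* at -0.32 are the only genes with an unadjusted limma p under 0.05 and are drawn in red.

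The nuclear partners were the only list with unadjusted limma p values under 0.05. Of its 14 genes, 11 were tested and 2 of these were lower at this level, against 0.956% of all tested genes. The median of the list was -0.032. By the exact permutation test, *Fos* here and *Stk38* of the kinase core were the only genes of the 6 lists with an unadjusted p under 0.05. The share of all tested genes under 0.05 by that test was not computed. Whether these 2 genes stand out by it therefore cannot be said. *Fos*, a subunit of AP-1 that sits beside TEAD at many enhancers and an immediate early gene itself, was at 2965, 2919, 1531, 5416 and 2839 in wildtype replicates 1 to 5 and at 1818, 975, 1819, 2284 and 1884 in gene trap replicates 1 to 5. Each wildtype tumor but replicate 3 lay above each gene trap tumor. Its log2 fold change was -0.77 (standard error 0.29, limma unadjusted p = 0.0218, adjusted p = 0.9997; exact two-sided permutation test, p = 0.0397).

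*Fosl2*, another AP-1 subunit, had a log2 fold change of -0.32 (standard error 0.15, limma unadjusted p = 0.0494, adjusted p = 0.9997; exact two-sided permutation test, p = 0.119). *Jun*, the usual partner of *Fos* in AP-1, had a log2 fold change of 0.00030. *Srf*, the factor behind the CArG box, was at -0.084 (standard error 0.10). *Vgll4*, which competes with YAP for TEAD, had a log2 fold change of -0.032 and *Vgll3* of -0.13, while *Vgll1*, *Vgll2* and *Fosl1* were not tested.

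The list of other YAP and TAZ targets repeated the target question with genes outside the 10. Of its 18 genes 17 were tested, and 6 had higher and 11 lower values in gene trap tumors, none with an unadjusted p under 0.05. Over all tested genes, 10221 of 21034 were lower and 2.28% had an unadjusted p under 0.05. *Lats2* and *Ptpn14* were also counted in an earlier list each. The median log2 fold change was -0.043 (0.0047 over all tested genes), and single genes lay between -0.21 and 0.14. *Nt5e*, the ecto-enzyme CD73, had a wildtype mean of 733 ± 210 (SD, n = 5) and a gene trap mean of 613 ± 41.1 (SD, n = 5), a log2 fold change of -0.21 (standard error 0.17). *Tgfb2* was at -0.14 (standard error 0.099) and *Arhgef17* at 0.14 (standard error 0.16). The log2 fold changes of *Ccn1* and *Ccn2* thus lay outside the range of these 17 genes, and both of their intervals reached into it.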

How the data were processed

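Total RNA libraries (TruSeq Stranded) were made from primary mammary tumors. The authors deposited a signal value per gene and tumor, an estimated count with fractions that was already scaled (median ratio to the geometric mean 1.01 in each tumor used). The submitters' processing notes name Partek, STAR 2.7.8a, DESeq2 and build mm39. The paper names median ratio normalization for RNA-seq aligned to a human genome, and its use for these tumors is not stated. The annotation and counter are not given in the sources used here. Of 16 value columns, 10 matched a labelled tumor by name, and 6 matched none and were not used. Column totals lay between 31995078 and 42153593.

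Gene symbols were found for 22899 of 23609 IDs (97.0%). Lengths came from GENCODE mouse release 21 on GRCm38, another build than mm39. The only coordinates given are those of the promoter stretches, which are on GRCm38.p6 and not on mm39. Tests used log2(value + 1), with 1 as the pseudocount. The 21034 genes whose mean reached 10 were fitted with limma 3.58.1 (R 4.3.3), with a variance trend and the group as the only factor, and p-values were adjusted by Benjamini-Hochberg over all tested genes. Single values were compared by exact permutation over 252 arrangements, and correlations by 100000 resamples. The calculations were tested on simulated data. The genes and lists were chosen with earlier results of these data known, lists were written from memory, and the marker list correlations were added after values were seen. Named genes are the 10 genes, *Resf1*, the 3 smallest p of each list and the 3 most alike genes of each target. *Lats1*, *Lats2*, *Stk4*, *Ptpn14*, *Fosb*, *Jun*, *Junb*, *Jund*, *Vgll3*, *Vgll4* and the marker genes were named outside this rule, after their values were seen.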

Additional observations from a re-analysis of the deposited data

Results flagged for a closer look

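Among the 5 gene trap tumors, replicate 5 had an *Ankrd1* value of 69.4, and the remaining 4 ranged from 40.01 to 43.7. Replicate 4 had a *Tead3* share of the summed TEAD level per kilobase of 14.3%, and the remaining 4 ranged from 18.5% to 20.2%. Both were picked out by the distance to the nearest tumor relative to the range of the group. With 16 measures in 2 groups, chance alone would give about 1.6 such values.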

How the results depend on the processing

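No gene had an adjusted p under 0.05 in any of 19 alternative fits, and 308 to 692 genes had an unadjusted p under 0.05 when each tumor was left out (308 without wildtype replicate 4, against 479). With tumor weights the log2 fold change was 0.0070 for *Wwtr1* and -0.0054 for *Tead4*, the other sign, and it was -0.22 for *Ccn2*, -0.24 for *Ccn1* and -0.26 for *Tead2*. The cause was not tested. With each tumor left out it ranged from -0.060 to 0.025 for *Wwtr1*, -0.14 to 0.055 for *Tead1*, -0.023 to 0.17 for *Tead4* and -0.12 to 0.088 for *Ankrd1*. *Yap1*, *Tead2*, *Tead3*, *Ccn1*, *Ccn2*, *Amotl2* and *Resf1* kept their sign in all 19. The difference in share ranged from -0.74 to 0.95 percentage points for *Tead1* from -7.13 to -1.13 for *Tead2* (without wildtype replicates 2 and 3), from 1.48 to 4.15 for *Tead3* (without wildtype replicates 5 and 2) and from -0.046 to 2.03 for *Tead4* (exact p = 0.0238 without wildtype replicate 2), and the *Wwtr1* to *Yap1* difference from -0.090 to 0.0023. From 0 to 1 pairs of genes passed the adjusted threshold. *Ankrd1* has no value with a minimum mean of 50, which it does not reach. Replicate numbers are shared by both groups. The deviations of same-numbered tumors from their group means, over the tested genes, correlated between -0.16 and 0.15. With the replicate number as a block 426 genes had an unadjusted p under 0.05, *Ccn2* had a log2 fold change of -0.36, and no call changed. Read depth is not known for any tumor, and counting error cannot be given.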
